A study of Mus musculus with 12 samples.

Results

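The endoplasmic reticulum (ER) folds the membrane and secreted proteins of a cell, and the 35 genes described here make up its folding and quality-control machinery together with the sensors of the unfolded protein response. They were given as a list of names chosen with earlier results of these data known, and a gene was kept where a probe set on the array named only that gene. All 35 met that rule, of 18193 genes measured. Where a gene had several such probe sets, the one with the highest mean over all arrays gave its value. By role the list held 6 sensors and signalling genes, 11 chaperones and co-chaperones, 4 protein disulfide isomerases, 9 genes of ER-associated degradation and 5 genes of the translocon and of coat protein II (COPII) vesicles.

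When unfolded proteins build up in the ER, the chaperone BiP is drawn away from the sensors IRE1, PERK and ATF6, which then act through separate branches. IRE1 splices the Xbp1 messenger so that it encodes an active transcription factor, ATF6 is carried to the Golgi and cut to release its own transcription factor, and PERK slows translation by phosphorylating eIF2α. Their targets include chaperones, disulfide isomerases and the degradation machinery that retrieves misfolded proteins for the proteasome, and in lymphocytes the same pathway is best known from plasma cells, which secrete antibody in bulk.

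Gene expression was measured on 12 Affymetrix arrays of sorted mouse CD8 T cells, 1 array a sample. The tumour-infiltrating lymphocytes (TIL) came from mice carrying B16F10-GP, a skin melanoma line, in the flank, and were sorted between day 17 and day 19 as PD-1+ Tim-3+ 2B4+ cells, which the labels call exhausted (n = 4), or as PD-1+ Tim-3- 2B4- cells, which the labels call stem-like (n = 3). Naive CD8 T cells came from the spleens of naive mice (n = 5). All mice were 6 to 8 weeks old, of a strain spelled C57bl/c in the labels, and no transgene, deletion or drug is named for any group. Tumours were digested with collagenase IV and DNase at warm temperature before the sort, so tumour, digestion and activation cannot be told apart in a comparison of TIL with naive cells. The labels do not say whether replicates came from separate mice or from pools, so p-values measure only the spread between these samples.

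The values are log2 intensities, and a level is given as mean ± SD and a change as log2 change ± SE from 1 limma fit of the 3 groups over all genes. A gene passed the test where its Benjamini-Hochberg adjusted p over the 18193 genes was below 0.05. Across genes, the correlation r between 2 arrays was 0.986 to 0.995 inside a group, 0.969 to 0.981 between Tim-3+ and Tim-3- TIL and 0.918 to 0.947 between TIL and naive cells. Arrays of each group also fall into sets A (Tim-3+ replicates 1 and 2, Tim-3- replicate 1, naive replicates 1 and 2) and B (the other 7), which no label names, and 27 of the 35 genes averaged higher in set B, against 46.6% of all genes. For 4 control transcripts, the signal of 3′ probe sets less that of 5′ ones, a measure of RNA quality and amplification, averaged -0.12 ± 0.093 in set A and 0.18 ± 0.064 in set B, and -0.035 ± 0.21 in Tim-3+, 0.10 ± 0.10 in Tim-3- and 0.10 ± 0.17 in naive arrays. Its part in the results was not tested, and values within each set stand beside some of the results, not all. Set A holds a single Tim-3- array, whose spread was taken to equal that of the other groups.

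The summed linear intensity of 6 CD8 T cell markers lay between 28888 and 34067 in Tim-3+, 28642 and 30600 in Tim-3- and 31800 and 35392 in naive arrays. Plasma cell markers summed to between 1176 and 1424 in Tim-3+, 1649 and 2018 in Tim-3- and 2656 and 3473 in naive arrays, and the defining Jchain, Mzb1 and Tnfrsf17 lay below log2 5.71, the level under which a value may be background, on all 12 arrays. Of the 7 measured, 2 rose and 1 fell in each TIL group against naive cells. The 2 were Prdm1 (3.42 in Tim-3+ and 1.38 in Tim-3- TIL) and Irf4 (2.33 and 2.59), both also expressed by activated T cells, and Prdm1 was 2.04 higher in Tim-3+ TIL than in Tim-3- TIL. The 1 that fell was Ighm, the heavy chain of IgM, which B cells share (-3.45 and -1.44). Melanoma markers summed to between 345 and 1264 in Tim-3+, 433 and 705 in Tim-3- and 445 and 583 in naive arrays, with Tim-3+ replicate 1 the highest. These sums hide opposed changes, since Pmel was lower in TIL (-1.24 in Tim-3+ and -0.88 in Tim-3- TIL against naive cells) while Tyrp1 was higher by 3.66 and 3.05 and Dct by 2.92 and 2.24. In all, 5 of 8 melanoma markers were higher and 1 lower in Tim-3+ TIL, with 2 higher and 1 lower in Tim-3- TIL, against naive cells, and their part in the results was not tested. The 15 measured genes of mitosis were all higher in Tim-3+ TIL than in Tim-3- TIL and higher in both than in naive cells, with sums between 16388 and 22998, 7082 and 11420, and 1037 and 1256 in that order of groups. The part of cycling cells in the changes below was not tested. Monocyte and macrophage markers summed to between 3107 and 3915 in Tim-3+, 4316 and 5121 in Tim-3- and 4510 and 4796 in naive arrays. Of these 11 markers, 7 lay below log2 5.71 on all arrays. In the same order, B cell markers gave 207 to 227, 240 to 254 and 593 to 784. Dendritic cell markers gave 285 to 330, 291 to 405 and 290 to 378. Neutrophil markers gave 125 to 149, 123 to 143 and 124 to 219. The part of these cells was not tested. In bulk samples of this kind, fewer cells expressing a gene and less RNA per cell cannot be told apart.

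Most of the ER folding and stress genes stood higher in TIL of either kind than in naive cells. By the probe set used for each gene, the widest gaps were in the sensors Atf6 and Ern1. In Tim-3+ TIL, 24 of the 35 rose against naive cells and 1 fell, where 20.1% of all genes rose and 21.4% fell. In Tim-3- TIL, 18 rose and 3 fell, where 16.1% of all genes rose and 18.3% fell. These shares include dim genes, and a filter at percentile 40 of mean level left 10916 genes, 34 of them from the list. In that fit 3290 genes rose and 3175 fell in Tim-3+ TIL, with 24 and 1 of the list. In Tim-3- TIL 2589 rose and 2824 fell, with 19 and 3 of the list. The median log2 change of the 35 genes, without the filter, was 0.58 in Tim-3+ and 0.38 in Tim-3- TIL, beside -0.065 and -0.063 over all genes. Both comparisons share the naive arrays, and 16 genes rose in both.

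Between the TIL groups 10 of the 35 genes passed the test, in both directions. Higher in Tim-3+ TIL were 4 of 11 chaperones and co-chaperones, 2 of 4 disulfide isomerases and 1 of 9 degradation genes. The 7 higher genes were Hsp90b1, Sdf2l1, Manf, Canx, Pdia3, Pdia4 and Derl2, and the 3 lower ones were Ppp1r15a, Dnajb9 and Derl1. These are 20.0% and 8.57% of the list, against 7.77% of all genes higher and 5.77% lower. After the filter on dim genes, 9 of 34 list genes were higher and 3 lower, against 1334 and 978 of 10916 genes. Without the filter, the median log2 change of the list was 0.21, beside 0.011 over all genes, and 25 of the 35 genes did not pass the test.

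**Figure D1:**
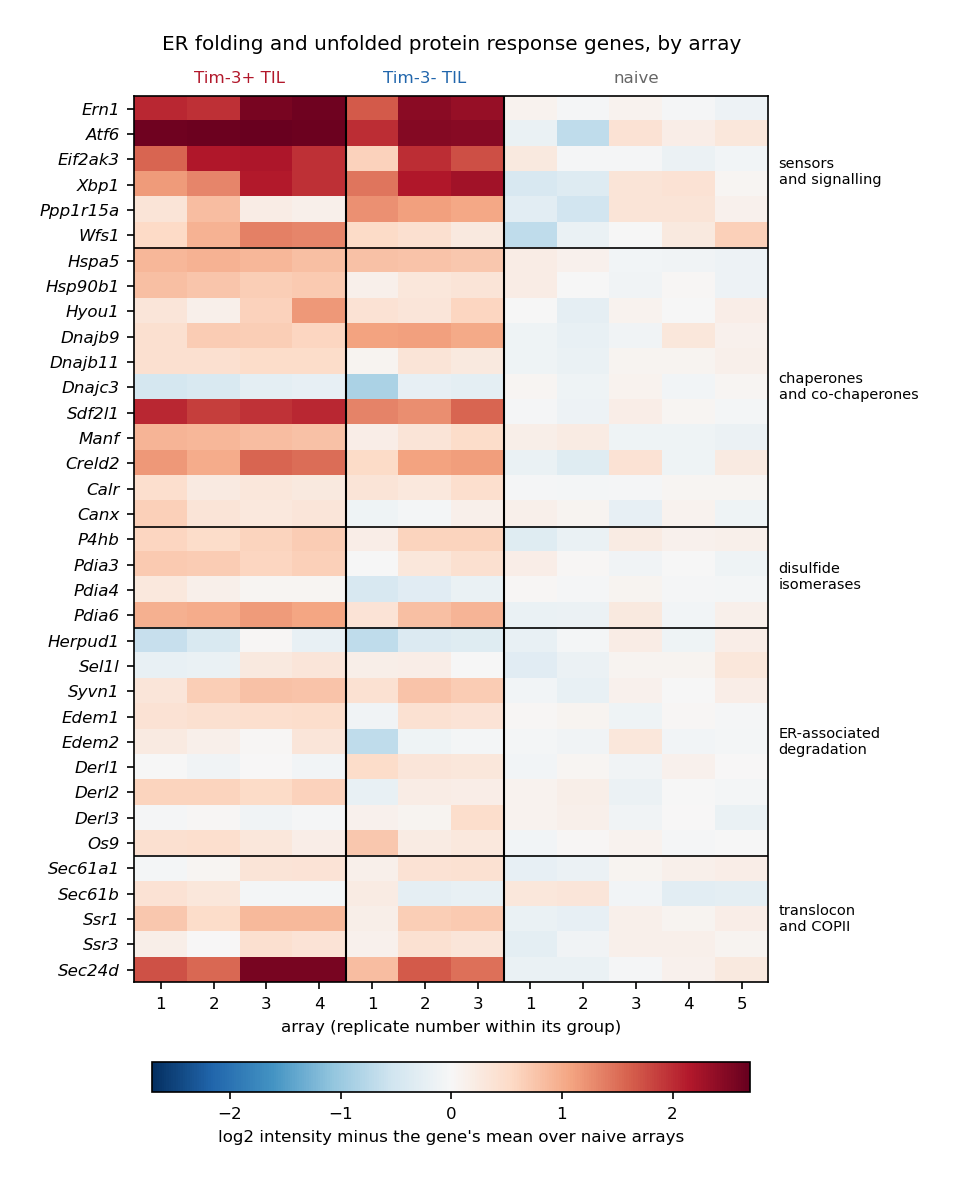
Log2 intensity of each of the 35 genes on each of the 12 arrays, shown as the difference from that gene's mean over the naive arrays, with genes in rows grouped by role and arrays in columns (Tim-3+ TIL, Tim-3- TIL, naive). Red is above and blue below the naive mean, and most rows are red in the TIL columns, with Ern1, Atf6, Eif2ak3, Xbp1, Sdf2l1 and Sec24d showing the strongest contrast.

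The sensors were expressed well above naive level in both TIL populations. Ern1, which encodes the kinase and nuclease IRE1, had log2 intensities of 8.41, 8.35, 8.94 and 9.01 in Tim-3+ TIL and 8.03, 8.82 and 8.72 in Tim-3- TIL, against 6.24 to 6.48 with a median of 6.35 in naive cells. Every TIL array lay above every naive array, and the TIL groups overlapped. The 5 probe sets of Ern1 gave changes against naive cells of 0.47 to 2.30 in Tim-3+ and 0.40 to 2.14 in Tim-3- TIL. The brightest set, used here, gave the largest change in both. Ern1 rose 4.93-fold in Tim-3+ (log2 change 2.30 ± 0.17, adjusted p = 9.21e-08) and 4.42-fold in Tim-3- TIL (2.14 ± 0.19, adjusted p = 8.57e-07) against naive cells, while Tim-3+ and Tim-3- TIL differed by 0.16 ± 0.20 (95% confidence interval -0.27 to 0.59, adjusted p = 0.722).

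Atf6, the sensor released by cleavage in the Golgi, lay at 9.60, 9.61, 9.64 and 9.61 in Tim-3+ TIL and at 8.96, 9.46 and 9.43 in Tim-3- TIL, against 6.79, 6.28, 7.36, 7.15 and 7.28 in naive cells. Its spread was narrow in Tim-3+ TIL (SD 0.020) and wide in naive cells (SD 0.44), and no group overlapped another. The change against naive cells was 2.64 ± 0.19 in Tim-3+ (6.25-fold, adjusted p = 5.26e-08) and 2.31 ± 0.21 in Tim-3- TIL (4.96-fold, adjusted p = 9.56e-07), the widest of the list in both comparisons. Between the TIL groups the difference was 0.33 ± 0.22 and did not pass the test (adjusted p = 0.406). The 3 probe sets of Atf6 gave changes against naive cells of 1.83 to 2.64 in Tim-3+ and 1.47 to 2.31 in Tim-3- TIL, and the set used gave the largest in both.

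Eif2ak3 encodes PERK, the kinase that slows translation. It stood at 9.20, 9.79, 9.81 and 9.61 in Tim-3+ TIL and at 8.25, 9.63 and 9.38 in Tim-3- TIL, against 7.48 to 7.90 with a median of 7.61 in naive cells. Tim-3- replicate 1 lay well under its 2 companions but still above every naive array. Log2 changes against naive cells were 1.97 ± 0.23 in Tim-3+ (adjusted p = 7.24e-06) and 1.45 ± 0.25 in Tim-3- TIL (adjusted p = 0.000372), and the change in Tim-3- TIL was 0.49 within set A (adjusted p = 0.247) and 1.96 within set B. Between the TIL groups the difference was 0.52 ± 0.26 (adjusted p = 0.252), with 1.25 within set A and 0.20 within set B.

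Xbp1, the transcription factor whose messenger IRE1 splices, was read as total transcript, since spliced and unspliced forms were not read separately. Its log2 intensities were 8.61, 8.78, 9.61 and 9.44 in Tim-3+ TIL and 8.91, 9.63 and 9.72 in Tim-3- TIL, against 7.02, 7.11, 7.80, 7.86 and 7.51 in naive cells. Within each group the set A arrays were the low ones, by 0.75 on average, the widest set difference of the list. Xbp1 rose by 1.65 ± 0.25 in Tim-3+ (adjusted p = 8.47e-05) and 1.96 ± 0.27 in Tim-3- TIL (adjusted p = 5.61e-05) against naive cells. Within the sets the Tim-3+ change was 1.63 and 1.80, and that of Tim-3- TIL was 1.84 and 1.95. All 4 probe sets of Xbp1 gave a change of 1.65 to 2.16 in Tim-3+ TIL, and they differed between the TIL groups by -0.31 to 0.081 with none past the threshold.

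Ppp1r15a was the only one of the 6 sensor and signalling genes to pass the test between the TIL groups. It encodes GADD34, the phosphatase subunit that removes the phosphate PERK places on eIF2α and so restores translation. Levels were 9.0, 9.49, 8.85 and 8.78 in Tim-3+ TIL against 9.88, 9.75 and 9.70 in Tim-3- TIL, with naive cells at 8.36, 8.13, 9.01, 9.0 and 8.77. No Tim-3+ array reached the Tim-3- arrays, and Tim-3+ arrays overlapped naive ones. The change was -0.75 ± 0.22 between Tim-3+ and Tim-3- TIL (adjusted p = 0.0344), 1.13 ± 0.21 between Tim-3- TIL and naive cells (adjusted p = 0.000673) and 0.38 ± 0.19 between Tim-3+ TIL and naive cells (adjusted p = 0.132). The difference between TIL groups was -0.63 within set A and -0.91 within set B, and its call was lost on leaving out Tim-3+ replicate 1, 3 or 4 or any 1 of the 3 Tim-3- arrays, with an adjusted p of up to 0.0941.

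Wfs1, an ER membrane protein, was higher than naive in Tim-3+ TIL by 1.04 ± 0.23 (adjusted p = 0.00208), with 6.60 to 7.43 in Tim-3+ TIL, 6.34 to 6.58 in Tim-3- TIL and 5.38 to 6.70 in naive cells. Between the TIL groups it differed by 0.63 ± 0.26 (adjusted p = 0.149), by 0.23 within set A and by 0.98 within set B (adjusted p = 0.0150).

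**Figure D2:**
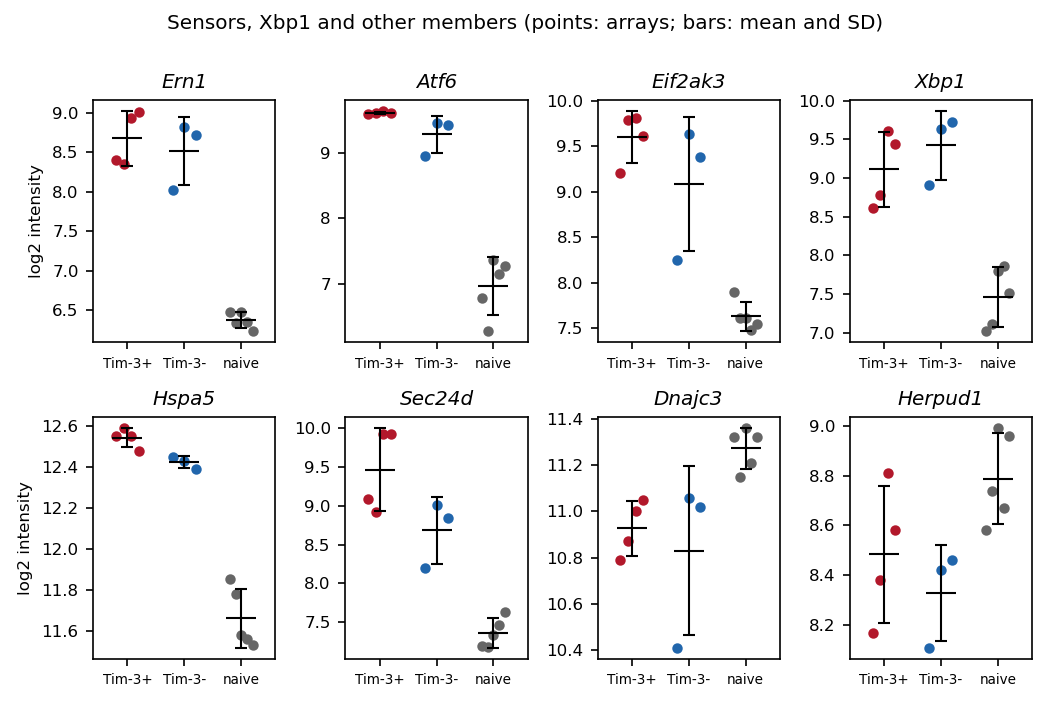
Log2 intensity of the sensors Ern1, Atf6 and Eif2ak3, of Xbp1, Hspa5, Sec24d, Dnajc3 and Herpud1 on every array (points), with the mean and SD of each group as bars, in Tim-3+ TIL (n = 4), Tim-3- TIL (n = 3) and naive cells (n = 5). The first 6 genes lie higher in both TIL groups than in naive cells, and Dnajc3 lies lower. In Herpud1 only Tim-3- TIL passed the test against naive cells.

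The chaperones rose almost throughout in Tim-3+ TIL. Of 11, 10 were higher and 1 was lower than in naive cells, and in Tim-3- TIL 6 were higher and 1 lower. Over all genes 20.1% were higher and 21.4% lower in Tim-3+ TIL, and 16.1% and 18.3% in Tim-3- TIL. Hspa5, which encodes BiP, the central Hsp70 chaperone of the ER, was at 12.55, 12.59, 12.55 and 12.48 in Tim-3+ TIL and at 12.45, 12.43 and 12.39 in Tim-3- TIL, against 11.85, 11.78, 11.58, 11.56 and 11.53 in naive cells. Both TIL groups lay clear of the naive arrays, at 0.88 ± 0.089 (1.85-fold, adjusted p = 1.73e-06) and 0.76 ± 0.097 (1.70-fold, adjusted p = 2.65e-05). Although every Tim-3+ array was above every Tim-3- array, the gap of 0.12 ± 0.10 did not pass the test (interval -0.10 to 0.34, adjusted p = 0.548).

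Sdf2l1 forms a complex with ER co-chaperones of the DnaJ class and keeps client proteins from aggregating. It had 9.60, 9.42, 9.52 and 9.60 in Tim-3+ TIL, 8.91, 8.81 and 9.13 in Tim-3- TIL, and 7.42 to 7.74 with a median of 7.53 in naive cells. The 3 groups formed separate steps, with Tim-3- TIL in the middle. Sdf2l1 was 3.92-fold higher in Tim-3+ TIL (1.97 ± 0.097, adjusted p = 8.78e-10) and 2.61-fold higher in Tim-3- TIL (1.39 ± 0.11, adjusted p = 1.90e-07) than in naive cells. Between Tim-3+ and Tim-3- TIL it differed by 0.58 ± 0.11 (adjusted p = 0.00268), by 0.60 within set A and by 0.59 within set B.

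Hsp90b1, which encodes the ER form of Hsp90 known as GRP94, a chaperone of integrins and Toll-like receptors, stood at 12.40, 12.34, 12.25 and 12.30 in Tim-3+ TIL against 11.73, 11.90 and 11.94 in Tim-3- TIL, with naive cells between 11.46 and 11.79. Tim-3- arrays overlapped naive arrays and Tim-3+ arrays overlapped neither. The change was 0.47 ± 0.10 between the TIL groups (adjusted p = 0.00806) and 0.73 ± 0.092 between Tim-3+ TIL and naive cells (adjusted p = 1.49e-05), while 0.27 ± 0.10 between Tim-3- TIL and naive cells missed the threshold (adjusted p = 0.0535).

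Manf, a small ER protein that binds BiP and can be secreted, followed the same order. Its levels were 11.08, 11.06, 11.00 and 10.96 in Tim-3+ TIL against 10.35, 10.51 and 10.67 in Tim-3- TIL, with 10.02 to 10.39 in naive cells. Tim-3+ TIL were higher than Tim-3- TIL by 0.51 ± 0.12 (adjusted p = 0.0107) and higher than naive cells by 0.85 ± 0.11 (adjusted p = 1.30e-05). The change of 0.34 ± 0.11 in Tim-3- TIL against naive cells (adjusted p = 0.0324) was -0.010 within set A and 0.55 within set B, and was lost without Tim-3- replicate 2 or 3 or without naive replicate 3, 4 or 5.

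Canx, the membrane-bound lectin chaperone calnexin, had 11.34, 11.05, 10.99 and 11.03 in Tim-3+ TIL against 10.58, 10.65 and 10.84 in Tim-3- TIL, with 10.48 to 10.85 in naive cells. Its change between the TIL groups was 0.41 ± 0.12 (adjusted p = 0.0430), and the change in Tim-3- TIL against naive cells was -0.015 ± 0.12 (adjusted p = 0.941). The call between TIL groups was lost in 8 of 12 fits that left out 1 array, with an adjusted p of up to 0.138, and the other 2 probe sets of Canx gave 0.33 and -0.19, neither past the threshold. Calr, the soluble partner calreticulin, did not pass the test between the TIL groups (-0.058 ± 0.092, adjusted p = 0.792) and rose against naive cells in both, by 0.31 ± 0.081 in Tim-3+ and 0.37 ± 0.088 in Tim-3- TIL.

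Dnajb9 was the 1 chaperone that was lower in Tim-3+ TIL than in Tim-3- TIL past the threshold, where 4 of the 11 were higher. It encodes ERdj4, a co-chaperone that hands BiP back to IRE1 and delivers misfolded proteins for degradation. Its levels were 9.87, 10.13, 10.11 and 10.02 in Tim-3+ TIL against 10.53, 10.56 and 10.47 in Tim-3- TIL, with 9.32, 9.25, 9.35, 9.75 and 9.56 in naive cells. The 3 groups did not overlap and Tim-3- TIL were the highest. The change between Tim-3+ and Tim-3- TIL was -0.49 ± 0.12 (adjusted p = 0.0178), with -0.53 within set A and -0.45 within set B, and the call needed both Tim-3+ replicate 1 and Tim-3- replicate 2. Against naive cells Dnajb9 rose by 0.59 ± 0.11 in Tim-3+ (adjusted p = 0.000549) and by 1.08 ± 0.12 in Tim-3- TIL (adjusted p = 7.45e-06).

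The remaining co-chaperones did not pass the test between the TIL groups, with an adjusted p of 0.202 to 0.781. Creld2, an ER protein with epidermal growth factor-like repeats, rose against naive cells by 1.32 ± 0.18 in Tim-3+ (adjusted p = 3.18e-05) and 0.90 ± 0.19 in Tim-3- TIL (adjusted p = 0.00219). Hyou1, which recharges BiP with ATP, and Dnajb11, the co-chaperone ERdj3, rose against naive cells in Tim-3+ TIL by 0.56 ± 0.17 and 0.46 ± 0.094, while their changes in Tim-3- TIL were 0.43 ± 0.19 (adjusted p = 0.0970) and 0.23 ± 0.10 (adjusted p = 0.0982). Dnajc3, a co-chaperone also described as an inhibitor of PERK, was the 1 chaperone that fell. It had 10.79 to 11.05 in Tim-3+ TIL and 10.41, 11.06 and 11.02 in Tim-3- TIL, against 11.15 to 11.36 in naive cells, changes of -0.35 ± 0.13 (adjusted p = 0.0418) and -0.45 ± 0.14 (adjusted p = 0.0217). Its call in Tim-3- TIL was lost without Tim-3- replicate 1, and its call in Tim-3+ TIL was lost in 7 of 12 fits that left out 1 array. The other 4 probe sets of Dnajc3 were also lower and past the threshold in both comparisons, and over all 5 the changes ran from -1.17 to -0.35 in Tim-3+ and from -1.39 to -0.45 in Tim-3- TIL.

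Disulfide isomerases form and shuffle the disulfide bonds of new proteins. Of the 4, Pdia3 and Pdia4 were higher in Tim-3+ TIL than in Tim-3- TIL, and both calls were lost with the mean of the gene's probe sets. Pdia3, the isomerase ERp57 that works with calnexin and calreticulin and takes part in loading MHC class I, stood at 12.19, 12.16, 12.06 and 12.12 in Tim-3+ TIL against 11.47, 11.78 and 11.92 in Tim-3- TIL, with 11.37 to 11.66 in naive cells. Tim-3+ arrays lay above all others, and Tim-3- arrays overlapped naive ones. Pdia3 differed by 0.41 ± 0.12 between the TIL groups (adjusted p = 0.0305) and by 0.65 ± 0.10 between Tim-3+ TIL and naive cells (adjusted p = 0.000129). The difference between TIL groups was 0.71 within set A and 0.24 within set B, was lost without Tim-3+ replicate 1, 2 or 4 or Tim-3- replicate 1 or 2, and was 0.18 in the gene's dimmer second probe set.

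In Pdia4, the isomerase ERp72, Tim-3- TIL lay lowest of the 3 groups. It had 9.87, 9.73, 9.64 and 9.64 in Tim-3+ TIL against 9.15, 9.28 and 9.41 in Tim-3- TIL, with 9.54 to 9.65 in naive cells. Tim-3- arrays lay below all naive arrays, and Tim-3+ arrays reached into the naive range. Changes were 0.44 ± 0.099 between Tim-3+ and Tim-3- TIL (adjusted p = 0.00805), -0.31 ± 0.095 between Tim-3- TIL and naive cells (adjusted p = 0.0213) and 0.14 ± 0.087 between Tim-3+ TIL and naive cells (adjusted p = 0.241). The call of Tim-3- TIL against naive cells was lost on leaving out Tim-3- replicate 1 or 2 (adjusted p of up to 0.0925) and within both array sets. The second probe set of Pdia4 averaged 4.94, near background. Pdia6 rose against naive cells by 1.05 ± 0.13 in Tim-3+ (adjusted p = 1.20e-05) and 0.70 ± 0.14 in Tim-3- TIL (adjusted p = 0.00121), and P4hb, the founding isomerase of the family, by 0.59 ± 0.13 and 0.46 ± 0.14. The P4hb call in Tim-3- TIL was lost on leaving out Tim-3- replicate 2 or 3 (adjusted p of up to 0.0945) and within set A. Pdia6 and P4hb did not pass the test between the TIL groups, at 0.34 ± 0.15 (adjusted p = 0.159) and 0.13 ± 0.15 (adjusted p = 0.696).

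ER-associated degradation showed no common direction between the TIL groups. Beside 7.77% of all genes up and 5.77% down, with a median change of 0.011, these 9 genes held 1 higher, 1 lower and a median of 0.0083. The opposed pair were paralogues. Derl1 and Derl2 encode derlins, membrane proteins that help to move misfolded proteins out of the ER. Derl2 had 10.77, 10.77, 10.68 and 10.78 in Tim-3+ TIL against 9.96, 10.37 and 10.34 in Tim-3- TIL, with a mean of 10.17 and a highest value of 10.32 in naive cells, whereas Derl1 had 10.89, 10.79, 10.91 and 10.83 in Tim-3+ TIL against 11.40, 11.22 and 11.19 in Tim-3- TIL, with 10.80 to 11.00 in naive cells. In Derl2 the Tim-3+ arrays stood apart from both other groups, and in Derl1 the Tim-3- arrays did. Derl2 was higher in Tim-3+ TIL than in Tim-3- TIL by 0.53 ± 0.12 (adjusted p = 0.00843) and Derl1 lower by 0.41 on the log2 scale (-0.41 ± 0.095, adjusted p = 0.00940).

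Both calls rest on the brightest probe set. The other 3 sets of Derl1 gave -0.071, -0.021 and -0.28 between the TIL groups, and the other set of Derl2 gave 0.037, none past the threshold. That second Derl2 set, which averaged 7.14, also fell in Tim-3+ TIL against naive cells (-0.56, adjusted p over all probe sets 0.00864), where the brighter set rose by 0.58 ± 0.10 (adjusted p = 0.000396). Derl3, the third derlin, lay between 5.45 and 5.56 in Tim-3+ TIL, 5.61 and 6.00 in Tim-3- TIL and 5.36 and 5.68 in naive cells, around the background level, and passed no test.

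Among the other degradation genes, Syvn1, the ubiquitin ligase HRD1, rose against naive cells by 0.63 ± 0.12 in Tim-3+ (adjusted p = 0.000716) and 0.63 ± 0.13 in Tim-3- TIL (adjusted p = 0.00203), and the TIL groups differed by 0.0083 ± 0.14. Its adaptor Sel1l passed no test with its brightest probe set (0.054 ± 0.14 in Tim-3+ TIL), although 3 of its 5 sets rose in Tim-3+ TIL against naive cells. Os9, a lectin that recognises misfolded glycoproteins, rose by 0.34 ± 0.11 in Tim-3+ (adjusted p = 0.0213) and 0.41 ± 0.12 in Tim-3- TIL (adjusted p = 0.0166), calls lost without Tim-3+ replicate 1 or 2 and without Tim-3- replicate 1. Herpud1, a scaffold of the HRD1 complex, fell in Tim-3- TIL (-0.45 ± 0.15, adjusted p = 0.0311), with 8.11, 8.42 and 8.46 there and 8.17 to 8.81 in Tim-3+ TIL, against 8.58 to 8.99 in naive cells. That call was lost in 4 of 12 fits that left out 1 array (without Tim-3- replicate 1 or 2 or naive replicate 3 or 5), with an adjusted p of up to 0.135, and with the most variable probe set. Edem1, a mannosidase-like factor that marks glycoproteins for disposal, rose in Tim-3+ TIL by 0.44 ± 0.10 (adjusted p = 0.00359). Its relative Edem2 differed by 0.48 ± 0.15 between the TIL groups (adjusted p = 0.0558), by 0.89 within set A and by 0.27 within set B.

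Of the 5 translocon and COPII genes, 2 rose against naive cells in each TIL group, where 20.1% of all genes rose in Tim-3+ and 16.1% in Tim-3- TIL. Sec61a1 and Sec61b, which build the channel that admits new proteins to the ER, and Ssr3 of the associated TRAP complex passed the test in no comparison, and their partner Ssr1 rose against naive cells by 0.74 ± 0.14 in Tim-3+ (adjusted p = 0.000538) and 0.51 ± 0.15 in Tim-3- TIL (adjusted p = 0.0164). The Ssr1 call in Tim-3- TIL was lost on leaving out Tim-3- replicate 2 or 3 (adjusted p of up to 0.0957) and within set A. Of the 6 probe sets of Sec61a1, 4 dimmer ones were higher in Tim-3+ TIL than in naive cells, with changes of 0.18 to 0.89 over all 6.

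Sec24d, the COPII subunit that picks cargo leaving the ER, had 9.09, 8.92, 9.92 and 9.93 in Tim-3+ TIL and 8.20, 9.01 and 8.84 in Tim-3- TIL, against 7.18 to 7.63 in naive cells. Both TIL groups lay above naive cells, by 2.10 ± 0.22 (4.30-fold, adjusted p = 3.08e-06) and 1.32 ± 0.24 (2.50-fold, adjusted p = 0.000715). Tim-3+ replicate 2 overlapped the Tim-3- arrays, and the difference of 0.78 ± 0.26 between the TIL groups missed the threshold (adjusted p = 0.0598). Set A arrays were the low ones in each group, and a fit that blocked on the sets gave 0.89 (adjusted p = 0.000669), at 0.81 within set A (adjusted p = 0.0283) and 1.00 within set B (adjusted p = 0.00199).

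**Figure D3:**
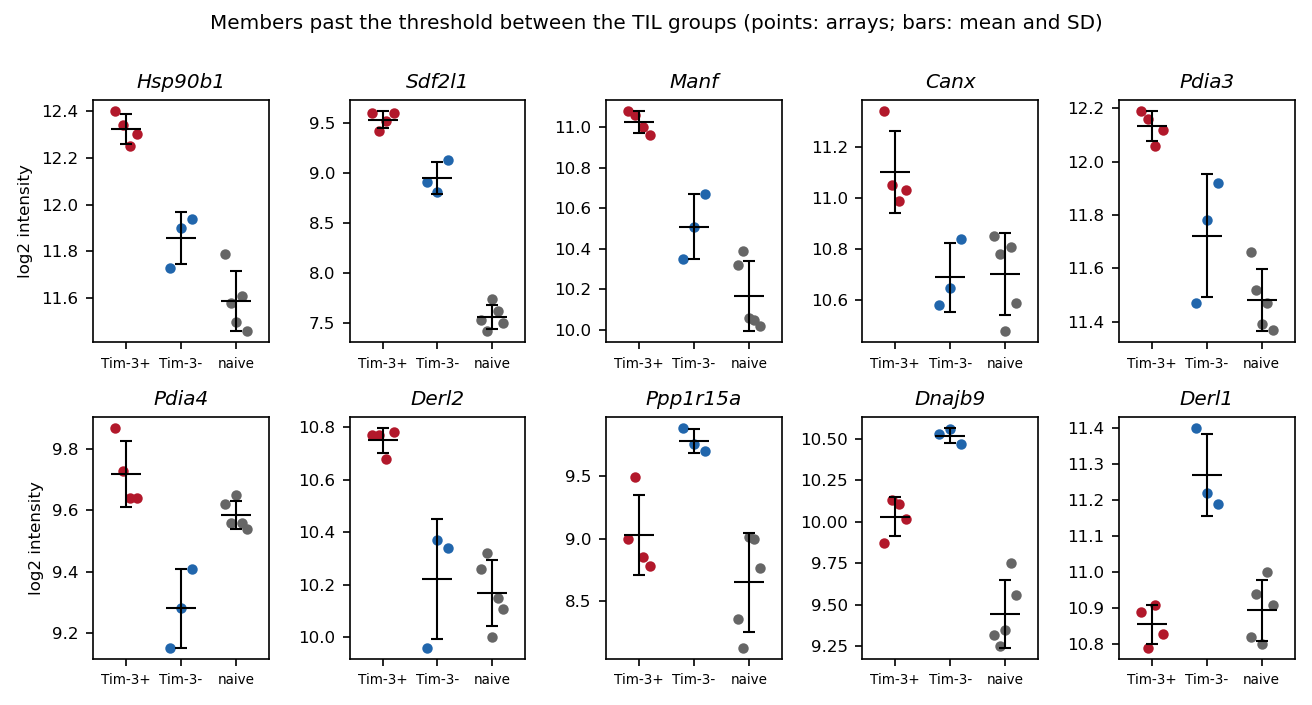
Log2 intensity of the 10 genes past the threshold between the TIL groups on every array (points), with group mean and SD as bars, in Tim-3+ TIL (n = 4), Tim-3- TIL (n = 3) and naive cells (n = 5). Each panel has its own vertical range. Hsp90b1, Sdf2l1, Manf, Canx, Pdia3, Pdia4 and Derl2 are higher in Tim-3+ TIL than in Tim-3- TIL, and Ppp1r15a, Dnajb9 and Derl1 are lower. The TIL groups overlap in no panel, but they also did not overlap in 17 of all 35 genes, called or not. The share over all genes was not counted.

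**Figure D4:**
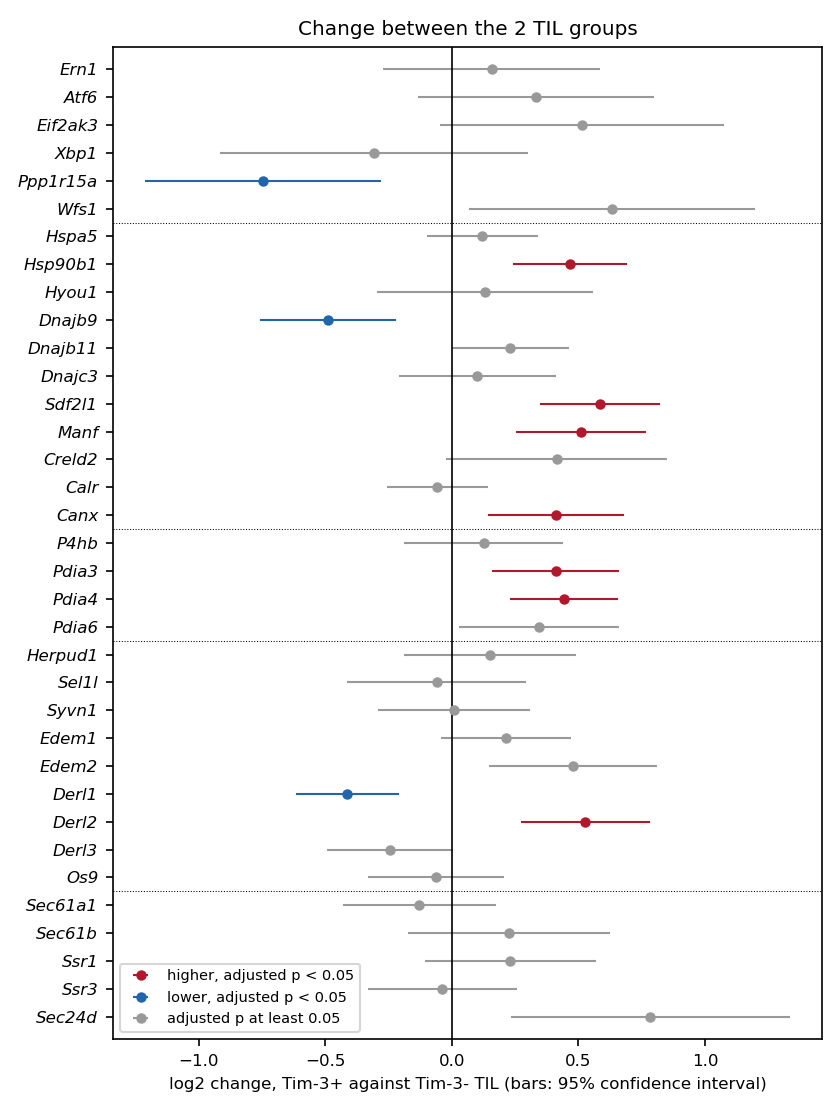
Log2 change of the 35 genes in Tim-3+ against Tim-3- TIL from the fit over all genes, with 95% confidence intervals as bars and genes ordered by role. Red marks the 7 genes that were higher and blue the 3 that were lower at an adjusted p below 0.05, and grey the 25 others. Sec24d has the largest rise (0.78) but a wide interval.

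For the 10 genes past the threshold, the arrays of the TIL groups did not overlap. Their direction within each array set was therefore fixed in advance and is no check of the calls. In set A the changes of the 7 higher genes lay between 0.60 and 0.81, and in set B between 0.24 and 0.59. With fewer arrays 2 of the 10 passed within set B. In a fit that blocked on the sets all 10 passed and 7 further genes joined them, all higher in Tim-3+ TIL. These were Wfs1, Dnajb11, Creld2, Pdia6, Edem2, Ssr1 and Sec24d. That fit also raised the calls over all 18193 genes, from 2463 to 3348, and those higher in Tim-3+ TIL from 1413 to 1964. Without Tim-3- replicate 1, which was the lowest Tim-3- array for 23 of the 35 genes, the median change of the list was 0.097 in place of 0.21. Hsp90b1, Sdf2l1, Manf, Pdia4, Derl1 and Derl2 kept their calls in every fit that left out 1 array.

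A total of 24 genes had more than 1 probe set, and these disagreed on passing the test in 5 genes between the TIL groups (Canx, Pdia3, Pdia4, Derl1 and Derl2), in 8 between Tim-3+ TIL and naive cells and in 13 between Tim-3- TIL and naive cells. In Tim-3+ TIL against naive cells the sets ranged from 0.31 to 0.63 in Syvn1, from -0.027 to 0.44 in Edem1, from 0.24 to 0.34 in Os9, from 0.043 to 1.10 in Ssr1 and from 0.24 to 0.32 in Ssr3, beside Derl2, Sel1l and Sec61a1 as given above. In Tim-3- TIL against naive cells they ranged from 0.40 to 2.14 in Ern1, where 4 of 5 sets passed, and from 0.27 to 0.40 in Hsp90b1. Canx ranged from -0.015 to 0.83 there, Pdia3 from 0.24 to 0.54, Pdia4 from -0.31 to -0.040, Herpud1 from -0.45 to -0.43 and Sel1l from -0.21 to 0.40. Derl1 ranged from 0.18 to 0.38, Derl2 from -0.60 to 0.054, Os9 from 0.14 to 0.41, Sec61a1 from 0.31 to 0.86, Ssr1 from 0.17 to 0.99 and Ssr3 from 0.28 to 0.29. In 1 case, Derl2 in Tim-3+ TIL against naive cells, the sets passed in opposite directions.

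Further genes of the same pathway were read from 5 other lists. Over all genes, the shares higher and lower were 7.77% and 5.77% between the TIL groups, 20.1% and 21.4% in Tim-3+ TIL against naive cells, and 16.1% and 18.3% in Tim-3- TIL against naive cells. Of 129 measured genes, 17 (13.2%) were higher and 2 (1.55%) lower in Tim-3+ than in Tim-3- TIL, and 47 (36.4%) were higher and 13 (10.1%) lower in Tim-3+ TIL than in naive cells. In Tim-3- TIL 25 (19.4%) were higher than in naive cells, close to the share of all genes, and 15 (11.6%) were lower. Other folding enzymes held 7 of the 17, of 33 measured, and 0 lower (limma, also 0 at an unadjusted p below 0.05). Clgn, a calnexin relative best known from the testis, had 9.23, 9.40, 9.16 and 9.23 in Tim-3+ TIL against 6.81, 7.18 and 7.45 in Tim-3- TIL, with 6.14 to 6.63 in naive cells, a change of 2.11 ± 0.15 between the TIL groups (adjusted p = 6.88e-07). Rcn1, a calcium-binding protein of the ER lumen, differed by 0.98 ± 0.10 (adjusted p = 2.26e-05), and Ero1a, the oxidase that recharges the disulfide isomerases, by 0.81 ± 0.12 (adjusted p = 0.000463). All arrays of the TIL groups were separate in these 3 genes.

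In the list for translocation, signal peptidase and glycan transfer, 4 of 29 genes were higher in Tim-3+ TIL than in Tim-3- TIL and 0 lower (limma, also 0 at an unadjusted p below 0.05), among them Sec11c and Spcs3 of the signal peptidase (0.42 ± 0.096 and 0.34 ± 0.092) and Rpn2 of the oligosaccharyltransferase (0.55 ± 0.15). COPII and ER-Golgi traffic had 4 of 24 higher and 0 lower (limma, 2 lower at an unadjusted p below 0.05), led by Lman1, a cargo receptor (1.04 ± 0.15, adjusted p = 0.000363), with Sar1b, the GTPase that starts the coat (0.41 ± 0.093), and Kdelr2, which returns escaped ER proteins (0.72 ± 0.17). Other degradation genes had 1 of 24 higher, Rnf5 (0.60 ± 0.18), and 1 lower, Erlin1, a scaffold for turnover of ER membrane proteins (-1.18 ± 0.16, adjusted p = 0.000213). Erlin1 stood at 7.49 to 8.11 in Tim-3+ TIL and 8.86 to 9.15 in Tim-3- TIL, against 6.82 to 7.25 in naive cells. Among 19 other signalling genes and PERK targets, Traf2, an adaptor that binds IRE1, was higher by 0.56 ± 0.13 and Nfe2l2, the antioxidant transcription factor NRF2, was lower (-0.60 ± 0.14), and the remaining 17 did not pass the test.

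The promoters of the list were read for the ER stress response element (ERSE), which ATF6 and XBP1 are known to bind together with the CCAAT-binding factor NF-Y. RefSeq promoter sequences (build GRCm38.p6, 250 bases before to 50 after each gene's start) were matched for 30 of the 35 genes, and those of Sec61a1, Hyou1, Atf6, Derl1 and Manf were not. An exact ERSE (CCAAT, 9 bases, CCACG, on either strand) was found in 9 of the 30 promoters, against 37 of 27025 promoters in the whole table (0.137%). The 9 genes were Calr, Canx, Creld2, Derl3, Dnajc3, Hsp90b1 with 2 matches, Hspa5, Pdia6 and Syvn1. The list was put together from known genes of this response, some known by this element, so the share is a description.

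The promoters of Hspa5, and of Hsp90b1 and Canx, which hold an ERSE and were higher in Tim-3+ TIL than in Tim-3- TIL, are shown 5′ to 3′ on the strand of the gene, with both ends of each ERSE in capitals. That of Hspa5 is chr2:34771840-34772139 (plus strand), that of Hsp90b1 chr10:86705395-86705694 (minus strand) and that of Canx chr11:50325624-50325923 (minus strand).
Hspa5: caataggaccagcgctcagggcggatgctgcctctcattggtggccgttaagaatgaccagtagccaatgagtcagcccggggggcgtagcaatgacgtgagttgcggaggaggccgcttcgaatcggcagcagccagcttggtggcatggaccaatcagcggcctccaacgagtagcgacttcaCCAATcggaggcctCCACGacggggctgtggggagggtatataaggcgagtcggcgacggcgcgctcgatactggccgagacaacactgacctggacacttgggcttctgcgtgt
Hsp90b1: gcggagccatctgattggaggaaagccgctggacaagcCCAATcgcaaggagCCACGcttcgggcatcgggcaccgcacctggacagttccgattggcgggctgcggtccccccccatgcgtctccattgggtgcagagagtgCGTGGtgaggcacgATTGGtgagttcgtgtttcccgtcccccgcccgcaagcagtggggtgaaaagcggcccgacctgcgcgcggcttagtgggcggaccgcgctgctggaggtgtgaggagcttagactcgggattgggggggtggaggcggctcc
Canx: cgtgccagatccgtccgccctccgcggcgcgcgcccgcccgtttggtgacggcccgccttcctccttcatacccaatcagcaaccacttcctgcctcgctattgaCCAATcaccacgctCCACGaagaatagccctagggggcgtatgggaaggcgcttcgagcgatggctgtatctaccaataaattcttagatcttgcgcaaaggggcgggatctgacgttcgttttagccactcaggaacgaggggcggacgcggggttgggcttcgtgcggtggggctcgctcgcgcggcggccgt
The first match of Hsp90b1 reads along the gene, and the second lies on the other strand, so it appears with its ends exchanged and complemented.

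The shorter ERSE-II (ATTGG, 1 base, CCACG), an element of the same factors, was found in Dnajb11 and Herpud1, against 0.0444% of all promoters. The XBP1 element TGACGTGG was found in Sec24d, against 0.714% of all promoters, and the ATF4-type element TTGCATCA in Herpud1, against 1.03%. The CCACG of both ERSE forms can overlap the XBP1 element on the opposite strand, and no matches overlapped in these genes. A match is a run of letters and was not tested as a binding site.

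Counts for genes with and without an exact ERSE are set side by side, with no test between them. Of the 9 with it, 7 rose and 1 fell in Tim-3+ TIL against naive cells, 5 rose and 1 fell in Tim-3- TIL against naive cells, and 2 were higher in Tim-3+ TIL than in Tim-3- TIL. Of the 21 whose promoter holds none, 14 rose in Tim-3+ TIL, 10 rose and 2 fell in Tim-3- cells, and 4 were higher and 2 lower in Tim-3+ than in Tim-3- TIL. The median change in Tim-3+ TIL against naive cells was 0.63 with the element and 0.58 without it, beside -0.065 over all genes. The all-gene shares up and down were 20.1% and 21.4% for Tim-3+ TIL and 16.1% and 18.3% for Tim-3- TIL, both against naive cells. Between the TIL groups they were 7.77% and 5.77%. An exact ERSE is held by 20 measured genes, 9 of them on the list. Outside the list, Ero1b passed as higher (0.49) and Spats2l as lower (-0.51) in Tim-3+ TIL against naive cells. Spats2l was also lower in Tim-3- TIL (-0.39), and the rest passed no test.

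**Figure D5:**
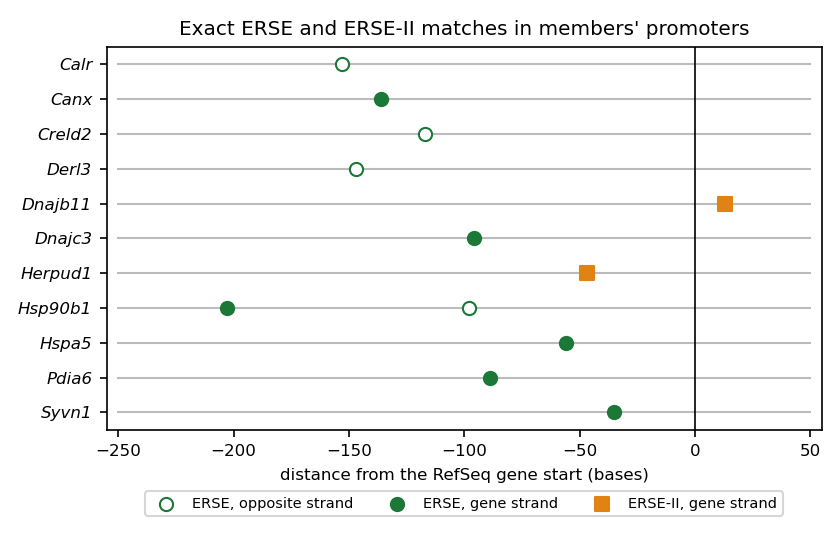
Position of each exact ERSE (circles) and ERSE-II (squares) in the promoters of the 11 genes that hold one, as the distance in bases of the match's centre from the RefSeq gene start. Filled circles lie on the strand of the gene and open circles on the opposite strand, and all but the Dnajb11 match lie before the start.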

How the data were processed

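The authors deposited intensities on the linear scale, 1 per probe set, for which the submitters' processing notes name RMA and affy. Tool versions, and whether normalization took in all arrays at once, are not given in the sources used. The log2 of each value was taken. Array medians lay between 58.8 and 63.0, and the number of arrays limits the precision. Of 45101 probe sets, 34945 name exactly 1 gene in the platform annotation, and 932 name several and were left out. Symbols were updated through gene IDs.

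limma 3.58.1 (R 4.3.3; lmFit, eBayes, two-sided) was fitted to 3 group means over all 12 arrays and 18193 genes, without a filter on dim genes. Python 3.11.15 with numpy 2.4.6, pandas 2.3.3 and matplotlib 3.10.9 did the rest. The method was tested on simulated data with independent noise in each gene and no array sets, so that test does not cover a difference between sets. Its limits for passing were loosened after a first run missed a gene of high spread. The genes, lists and array sets were chosen with earlier results of these data known.

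Genes named were all 35 of the list, in full those past the threshold between the TIL groups, the sensors with Xbp1, Ppp1r15a, Hspa5 and Derl3, and the 5 largest changes against naive cells; of each other pathway list, up to 3 with the smallest adjusted p between the TIL groups. The alternatives were another value per gene, normalization, a filter at percentile 40, moderation with trend, fits of 2 groups, array sets, the replicate number as a block and leaving out each array. The main fit did not pair the samples. Deviations of 10 same-numbered pairs had r between -0.15 and 0.413, and those below zero joined arrays of different sets. Inside a set, r was 0.128 to 0.413 for same-numbered pairs and 0.054 to 0.303 for the others. Whether equal numbers mark paired samples cannot be settled from these values. Protein sequences were not used here.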

Additional observations from a re-analysis of the deposited data

Results flagged for a closer look

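In 70 groups of 4 or 5 arrays, 2 held an array far from the others by Dixon's test at the 95% level, where chance alone marks about 1 in 20. Edem2, the mannosidase-like degradation factor, stood at 7.93 in naive replicate 3, with the other naive arrays between 7.53 and 7.57. Derl2 stood at 10.68 in Tim-3+ replicate 3, with the other Tim-3+ arrays between 10.77 and 10.78. The gap in Derl2 is small beside its change of 0.53 between Tim-3+ and Tim-3- TIL.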

How the results depend on the processing

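Of the 35 genes, 25 passed in Tim-3+ and 21 in Tim-3- TIL against naive cells. Over the alternatives run, the count in Tim-3- TIL was lowest within set A (14), and the leave-one-out ranges were 23 to 25 in Tim-3+ and 16 to 22 in Tim-3- TIL. Without Tim-3- replicate 1, 21 were higher in Tim-3- TIL in place of 18, and the 3 lower calls were lost. The 10 genes past the threshold between Tim-3+ and Tim-3- TIL were 5 with the mean of a gene's probe sets and 5 with its most variable probe set. They were 17 with the array sets as a block and 4 within set B. Over all 18193 genes, 2463 passed in the main fit, and 2740, 2407, 3348 and 2175 in these alternatives, in that order. With the mean, with the most variable set and within set B, the share of the list was thus close to that of all genes. Fits that left out 1 array gave 6 (without Tim-3- replicate 2) to 11 of the list. The median change over all 35 genes, 0.21 between the TIL groups, was 0.35 within set A and between 0.097 (without Tim-3- replicate 1) and 0.28 with 1 array left out. With the most variable probe set, the sign turned between the TIL groups for Canx (-0.19) and Pdia4 (-0.090), for Derl2 in Tim-3+ (-0.56) and Tim-3- TIL (-0.60) against naive cells, and for Canx in Tim-3- TIL against naive cells (0.83, and 0.33 with the mean). Manf in Tim-3- TIL against naive cells was -0.0100 within set A. The cause was not tested. The replicate number as a block gave 7 calls between the TIL groups (5 higher, 2 lower, median 0.19), 24 in Tim-3+ and 23 in Tim-3- TIL against naive cells. No call between the TIL groups held under every alternative, against 18 in Tim-3+ and 10 in Tim-3- TIL against naive cells. Probe sets near background limit Derl3 and the dim sets of Pdia4.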
